A study of Mus musculus with 17 samples.

Results

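Fibronectin, the thrombospondins and the matricellular proteins form the loose, adhesive part of the extracellular matrix, and 9 of their genes were followed here in mouse skin and kidney. Fn1 (fibronectin), Thbs1, Thbs2 and Thbs3 (thrombospondins), Postn (periostin), Tnc (tenascin C), Sparc (SPARC), Cthrc1 (collagen triple helix repeat containing 1) and Vcan (versican) were chosen by name, and all 9 were present among the 30406 genes whose identifier occurred in every one of the 17 libraries. On GRCm38 they lie at chr1:71585520-71653200 (Fn1), chr2:118111876-118127133 (Thbs1), chr17:14665500-14694235 (Thbs2), chr3:89215180-89226837 (Thbs3), chr3:54361109-54391037 (Postn), chr4:63959785-64047015 (Tnc), chr11:55394500-55423183 (Sparc), chr15:39076932-39087121 (Cthrc1) and chr13:89655312-89742509 (Vcan), and none overlaps another gene on its own strand. Each value below sums the whole gene, since 3′ tag counts do not separate isoforms such as the spliced forms of fibronectin and versican.

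Fibronectin is laid down early in wounded tissue and is the scaffold on which collagen is then deposited. Matricellular proteins such as the thrombospondins, periostin, tenascin C and SPARC are secreted into the matrix but mainly tune how cells attach, migrate and release growth factors, and several of them are induced by transforming growth factor β. SARA, the product of Zfyve9, is an endosomal protein first described as a partner of SMAD proteins, and the study asked how its overexpression bears on fibrosis.

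All mice were 8 weeks old and carried the PDGFRb-Cre driver and the Z/EG reporter, which turns on green fluorescent protein after Cre recombination. They were either WT or carried a Cre-dependent Sara transgene (SaraTG), a human ZFYVE9 cDNA behind a CAG promoter. Skin fibrosis was induced by subcutaneous bleomycin at 20 mg/kg, 3 times a week for 2 weeks, with PBS as control (3 WT PBS, 3 WT bleomycin, 1 SaraTG PBS and 1 SaraTG bleomycin library). Kidney fibrosis was induced by intraperitoneal aristolochic acid (AA) at 5 mg/kg, 3 times a week for 3 weeks, with vehicle as control (3 WT vehicle, 3 WT AA, 2 SaraTG vehicle and 1 SaraTG AA library). Cells positive for green fluorescent protein were sorted and profiled by droplet single-cell RNA sequencing. The fluorescence records that Cre was active at some time in a cell or its ancestors, leukocytes included, not that the cell expresses Pdgfrb at harvest. The labels do not say whether libraries came from separate animals, so p-values measure the spread between libraries, which may be technical.

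Skin libraries held 3355217 to 69765525 unique molecular identifiers (UMIs) and kidney libraries 28660151 to 137093834, with 781 to 6546 and 4003 to 10054 cells kept. Cells were assigned to gates by fixed marker lists that contain none of the 9 genes, which placed 63.5 to 89.0% of skin cells and 88.5 to 94.5% of kidney cells. By markers, the cells labelled PDGFRb+GFP+ were of many types. In skin the stromal gate held 3.12 to 21.9% of the kept cells and the myeloid gate 31.0 to 51.5%, the mural gate (pericytes and smooth muscle) held 4 to 51 cells per library, and the kidney libraries were mostly proximal tubule, lymphoid and myeloid cells with 0 to 42 stromal cells. The libraries labelled WT PBS 1 and WT PBS 3 in skin and WT AA 1 in kidney carried the transgene's signal (838 CPM of the human ZFYVE9 entry in the first, where CPM scales a level to the summed UMIs of its cells, and 620 and 163 CPM of Zfyve9 in the others, against 7.71 to 32.0 CPM of Zfyve9 in the other libraries labelled WT), while the library labelled SaraTG AA stood at 20.6 CPM. Each is named here by its label. The human entry was listed for 4 skin libraries only, and it stood at 87.4 to 187 CPM in WT PBS 2, WT bleomycin 1 and WT bleomycin 2. Kidney WT vehicle 3 stood apart from the other vehicle libraries, with 12.3% proximal tubule cells against 78.2 and 72.3%, and 55.5% of the barcodes of skin WT PBS 2, 22.1% of WT bleomycin 2, 17.6% of WT bleomycin 1 and 7.38% of WT PBS 1 also occurred in another library, against at most 2.13% in every other library.

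In skin, over gates held by at least 3 libraries, 7 of the 9 genes had their highest levels in the same pair of gates, stromal and Schwann cells, while Thbs1 was highest in neutrophils and Fn1 was shared by stromal and myeloid cells. The melanocyte gate, held by 1 library, carried Cthrc1 at 289 CPM. The stromal gate held a median over the 8 libraries of 89.9% of the Thbs2 UMIs of a library, 87.4% of those of Cthrc1, 83.8% of Thbs3, 74.3% of Sparc, 67.9% of Vcan, 60.1% of Postn and 53.7% of Tnc. Of the Fn1 UMIs it held 48.0%, with 45.7% in myeloid cells, and of the Thbs1 UMIs only 11.3%, with 76.4% in myeloid cells. These shares varied widely between libraries. The stromal share ran from 12.2 to 89.9% for Postn, 18.9 to 93.1% for Tnc, 14.1 to 72.1% for Fn1 and 0.831 to 63.3% for Thbs1. The myeloid share ran from 20.7 to 78.4% for Fn1 and 10.1 to 86.1% for Thbs1.

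**Figure D1:**
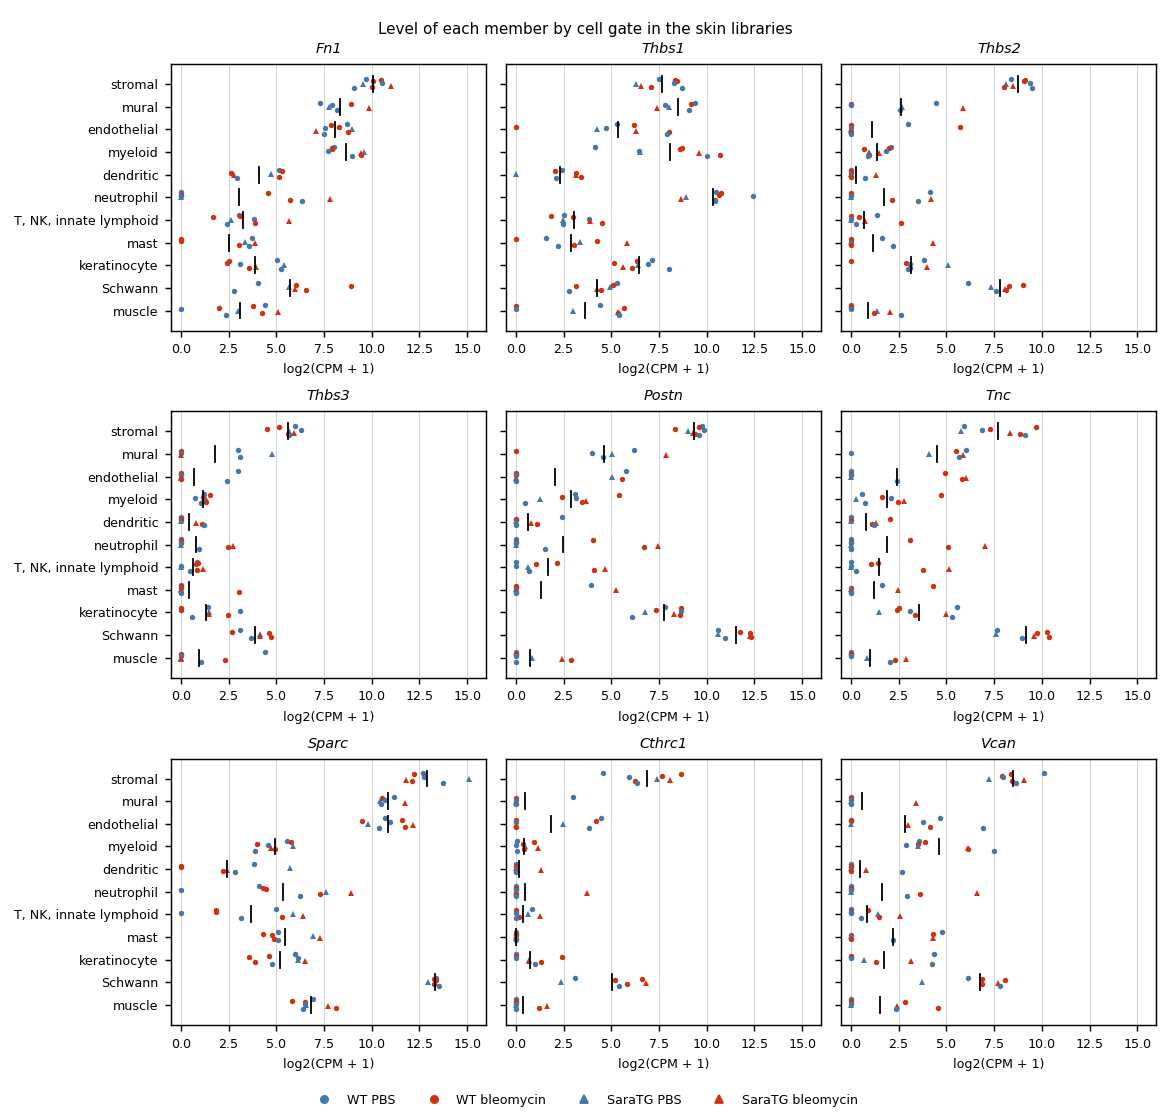
Level of each of the 9 genes by cell gate in the 8 skin libraries, as log2(CPM + 1), with 1 point per library that held at least 10 cells of the gate (circles WT, triangles SaraTG; blue PBS, red bleomycin) and a black bar at the mean of the points. The stromal bar is highest or next to the Schwann bar for every gene except Thbs1, whose neutrophil, mural and myeloid bars lie to its right.

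Within libraries, stromal levels of 8 of the 9 genes differed from myeloid levels by a two-sided exact sign-flip permutation test over the 8 libraries, all of them higher in stromal cells. Of the 6983 genes compared, 73% passed the same test, 40.4% higher and 32.6% lower in stromal cells. The mean difference, as log2 of the ratio with 10 CPM added to each level, was largest for Sparc, at 7.57 ± 1.11 (SD, n = 8), followed by Thbs2 at 5.24 ± 0.56 and Postn at 5.18 ± 0.74, and for all 7 genes other than Fn1 and Thbs1 it was positive in 8 of 8 libraries (exact p = 0.00781, the smallest this design gives). Fn1 was higher in stromal cells in 7 of 8 libraries, by 1.39 ± 1.08 (exact p = 0.0156). Thbs1 was higher in stromal cells in 2 of 8 libraries, with a mean of -0.49 ± 2.13 (exact p = 0.508).

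Stromal cells also stood above the few mural cells for 7 of the 9 genes, in 6 of 6 libraries with at least 10 mural cells (exact p = 0.0312 each, the smallest possible), while 34.4% of 7171 genes passed that test and 18.2% were higher in stromal cells. The log2 difference ran from 1.62 ± 0.70 for Fn1 to 5.05 ± 0.96 (SD, n = 6) for Vcan. Tnc was higher in stromal cells in 5 of 6 libraries (exact p = 0.0625) and Thbs1 in 1 of 6, with a mean of -0.82 ± 0.83 (exact p = 0.0938). Where fewer libraries held 10 mural cells, the test could not reach 0.05.

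Detection per cell separated the gates as well. Cells with at least 1000 UMIs were thinned to 1000 UMIs, and cells with fewer were left out of all thinned shares given here and below. After thinning, Sparc was detected in 86.5 ± 5.78% of stromal cells (SD, n = 8) and Fn1 in 43.2 ± 14.8%. In T, NK and innate lymphoid cells, which should lack both, the shares were 1.14% and 0.552%. Postn, Thbs2 and Vcan were detected in 29.0%, 26.7% and 24.8% of stromal cells after thinning, Thbs1 in 16.1%, Tnc in 14.2%, Cthrc1 in 9.42% and Thbs3 in 4.93%, and for these 7 genes the lymphoid share was at most 0.633%. Before thinning, at a median of 12108.5 UMIs per stromal cell and 6699 per lymphoid cell, Fn1 was detected in 66.0% and 5.03% of the cells.

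Bleomycin against PBS in WT was the skin contrast with 3 libraries per group. It was fitted with edgeR's quasi-likelihood test on UMI counts summed per library and gate. In stromal cells 0 of the 9 genes passed at a Benjamini-Hochberg adjusted p under 0.05, against 3.23% of the 11262 genes tested (1.78% higher and 1.46% lower, 364 genes in all, with 2771 at an unadjusted p under 0.05). DESeq2 also called 0 of the 9, and 1020 genes in all, and the replicate number as a block gave 0 of the 9 and 1110 genes. PBS 2 was also fitted as the only PBS library. Of the 3, its transgene signal was nearest to that of the WT bleomycin libraries. The human ZFYVE9 entry still stood at 187 CPM there, against 87.4 and 112 CPM in bleomycin 1 and 2. In that fit the bleomycin libraries alone supply the spread. Its control is the library of 781 cells, of whose barcodes 55.5% also occurred in another library. Values from that fit are therefore given below as log2 fold changes without a p-value. The median log2 fold change of the 9 genes was -0.35, beside -0.02 over all genes tested. For 7 genes the 3 bleomycin libraries overlapped the 3 PBS libraries, and for Thbs3 and Postn all 3 bleomycin libraries were lower. Over all genes tested, 29.3% did not overlap and 15% were lower without overlap. Stromal cells made up 14.9 ± 6.12% of kept cells with PBS and 6.81 ± 3.32% with bleomycin (SD, n = 3 each; difference -8.06 percentage points, two-sided exact permutation p = 0.2, where 0.1 is the smallest possible).

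**Figure D2:**
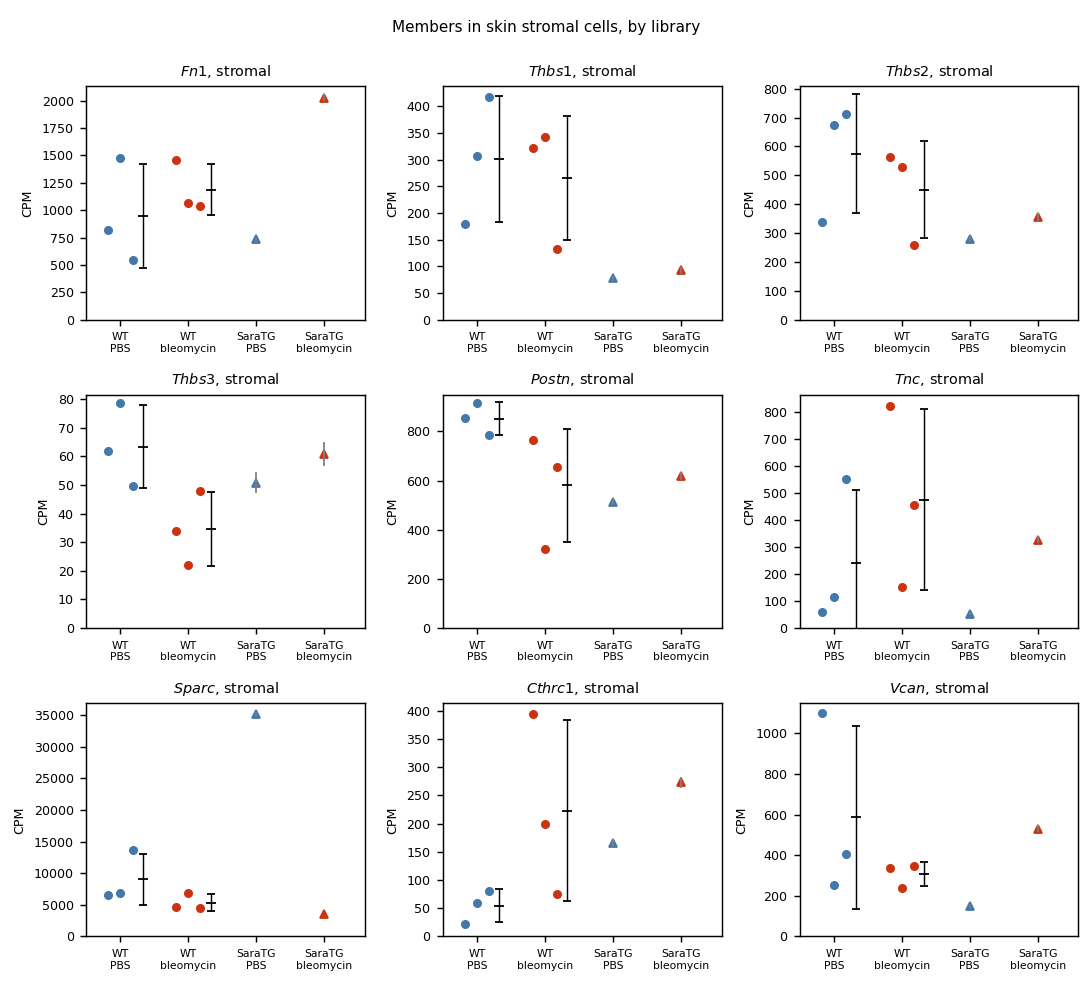
CPM of each gene in the stromal gate, 1 point per library (circles WT, triangles SaraTG; blue PBS, red bleomycin); black bars give the mean ± SD of the 3 WT libraries of a group, clipped at 0, and grey lines the 95% Poisson interval of a single library. In WT the bleomycin points lie below the PBS points for Thbs3 and Postn and overlap them for the other 7 genes, while in SaraTG bleomycin lies above PBS for both, and the SaraTG PBS library is far above the rest for Sparc.

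Fibronectin, the gene of the provisional scaffold, did not pass the test in the stromal gate as a whole. Stromal Fn1 stood at 823, 1476 and 546 CPM in the WT PBS libraries, 1456, 1063 and 1038 CPM in the WT bleomycin libraries, 737 CPM in SaraTG PBS and 2029 CPM in SaraTG bleomycin. PBS 2 was as high as the highest bleomycin library, so the groups overlapped (log2 fold change 0.36, SE 0.35, adjusted p = 0.565 by edgeR). Against PBS 2 alone the log2 fold change was -0.30.

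Smaller stromal classes gave different pictures of Fn1. In cells with Lrrc15, Acta2 and related markers, which tag matrix-producing and contractile fibroblasts, Fn1 stood at 194, 670 and 359 CPM with PBS and 1503, 1245 and 1359 CPM with bleomycin in WT, and at 643 and 2000 CPM in SaraTG. Every bleomycin library was above every PBS library there, as for 14.9% of the 8868 genes with at least 10 CPM in either group. In adventitial-type cells, marked by Pi16 and Dpp4, the same libraries gave 2306, 1898 and 783 CPM with PBS and 1101, 1076 and 466 CPM with bleomycin in WT, and 825 and 3673 CPM in SaraTG, so the WT groups overlapped and leaned the other way. Neither class was tested, since these patterns were picked out after their values were seen. The Lrrc15 and Acta2 class held 176 of 689, 36 of 154 and 76 of 371 stromal cells in the WT PBS libraries, 80 of 167, 64 of 207 and 80 of 204 in WT bleomycin, 77 of 998 in SaraTG PBS and 354 of 511 in SaraTG bleomycin.

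The thrombospondins are calcium-binding matrix glycoproteins, of which thrombospondin 1 can activate latent transforming growth factor β, and among them Thbs3 alone had WT groups without overlap in the stromal gate. Stromal Thbs3 stood at 61.9, 78.6 and 49.6 CPM with PBS and 34.1, 21.9 and 47.9 CPM with bleomycin in WT, and at 50.7 and 60.7 CPM in SaraTG. The WT groups did not overlap, but PBS 3 and bleomycin 3 were within 2 CPM of each other, and the change did not pass (log2 fold change -0.80, SE 0.30, adjusted p = 0.153). With the library labelled PBS 2 as the single control it was -1.15.

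Thbs2, the member of the family most restricted to stromal cells, stood at 338, 676 and 712 CPM with PBS and 564, 528 and 258 CPM with bleomycin in WT stromal cells, and at 278 and 355 CPM in SaraTG. Thbs1 was 180, 308 and 417 CPM against 322, 343 and 132 CPM, and 77.2 and 92.8 CPM in SaraTG. The WT groups overlapped for both (log2 fold changes -0.35, SE 0.40, adjusted p = 0.624, and -0.19, SE 0.44, adjusted p = 0.832).

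Periostin, a cross-linker of collagen and fibronectin made by activated fibroblasts, was lower with bleomycin in every WT stromal library, but not past the test. Postn stood at 856, 917 and 784 CPM with PBS and 765, 320 and 655 CPM with bleomycin, and at 513 and 619 CPM in SaraTG. The nearest libraries of the 2 WT groups were 784 and 765 CPM (log2 fold change -0.52, SE 0.31, adjusted p = 0.342). In the Lrrc15 and Acta2 class Postn was 954, 1105 and 1625 CPM with PBS and 802, 471 and 617 CPM with bleomycin, again without overlap (14.3% of genes were lower without overlap there) and again picked out after its values were seen.

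Tenascin C, which is low in resting adult skin and appears at sites of injury, varied more between libraries than between groups. Stromal Tnc stood at 58.7, 114 and 553 CPM with PBS, 822, 153 and 455 CPM with bleomycin, and 53.8 and 328 CPM in SaraTG PBS and bleomycin. PBS 3 was within the bleomycin range and the other 2 PBS libraries below it (log2 fold change 0.94, SE 0.87, adjusted p = 0.551, and 0.27 to 2.60 over 14 alternatives). PBS 1 and PBS 3 are both labelled WT but carry the transgene's signal, and they had the lowest and the highest Tnc of the WT PBS libraries. The part of the label in these values was not tested. With PBS 2 as the single control the log2 fold change was 2.09.

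SPARC, a calcium-binding glycoprotein that shepherds newly made collagen, had a high level in every stromal library and an extreme one in SaraTG PBS. Stromal Sparc stood at 6610, 6828 and 13706 CPM with PBS and 4692, 6928 and 4450 CPM with bleomycin in WT, and at 35181 and 3513 CPM in SaraTG. In WT the groups overlapped through bleomycin 2 (log2 fold change -0.77, SE 0.35, adjusted p = 0.222). The fall in SaraTG exceeded that in WT by 2.93 on the log2 scale (-2.93, SE 0.72, unadjusted p = 0.00306, adjusted p = 0.510 by edgeR over 13682 genes, of which 0 were called and 1040 had an unadjusted p under 0.05), a contrast added after the data were seen that rests on 1 SaraTG library per treatment. The summed level of the 10 stromal markers moved the same way, at 32781 to 53858 CPM with PBS and 17146 to 31569 CPM with bleomycin in WT, and at 132592 and 16460 CPM in SaraTG; its part in the Sparc values was not tested.

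Cthrc1, a secreted protein of activated fibroblasts that affects collagen deposition, had the largest fitted change of the 9 genes in stromal cells. It stood at 22.5, 60.2 and 81.1 CPM with PBS and 395, 200 and 75.0 CPM with bleomycin in WT, and at 165 and 274 CPM in SaraTG. Bleomycin 3 lay below PBS 3, so the groups overlapped, and the log2 fold change of 2.04 (SE 0.68, unadjusted p = 0.0162) did not pass across genes (adjusted p = 0.118). Over 14 alternative fits it stayed positive, from 0.94 to 2.63, with adjusted p from 0.0117 to 0.567. The one alternative that called it, at 2.03, kept genes of low count in the test, and with PBS 2 as the single control it was 1.92. Within the Lrrc15 and Acta2 class Cthrc1 was 31.2, 156 and 65.3 CPM with PBS, 438, 268 and 104 CPM with bleomycin, and 106 and 277 CPM in SaraTG. In that class bleomycin 3 again fell inside the PBS range.

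Versican, a hyaluronan-binding proteoglycan cleaved by ADAMTS proteases, had its highest stromal value in a PBS library. Stromal Vcan stood at 1100, 254 and 406 CPM with PBS and 336, 240 and 348 CPM with bleomycin in WT, and at 149 and 531 CPM in SaraTG. Without PBS 1 the 2 WT ranges would lie on top of each other (log2 fold change -0.87, SE 0.45, adjusted p = 0.283; against PBS 2 alone 0.30). The sub-class marked by Crabp1 and Corin, which tags hair follicle dermal cells, carried the most Vcan, at 4885 and 1852 CPM in WT PBS 1 and 3, 446 CPM in WT bleomycin 3, and 2708 and 2061 CPM in SaraTG PBS and bleomycin. The remaining libraries held under 10 such cells.

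Markers of other cell types and of dissociation stress shifted within the stromal gate as well. Summed mural markers stood at 80.4 to 823 CPM with PBS and 601 to 1015 CPM with bleomycin in WT, and summed Schwann markers at 15.0 to 41.9 and 41.3 to 58.0 CPM. Summed muscle markers were 51.8 to 143 CPM with PBS and 110 to 401 CPM with bleomycin in WT, but 191 and 117 in SaraTG. Besides the stromal markers, 5 lists were lower with bleomycin in WT without overlap, all at low levels: endothelial (29.4 to 94.3 against 15.4 to 23.1 CPM), keratinocyte (60.4 to 80.0 against 32.4 to 57.4), melanocyte (38.8 to 87.7 against 25.9 to 33.7), B cell (367 to 605 against 143 to 350.2) and lymphoid (10.5 to 17.2 against 6.97 to 9.47) markers. The 12 immediate early and heat shock genes summed to 8491 to 12762 CPM with PBS and 4544 to 7304 CPM with bleomycin, with 7825 and 3593 CPM in SaraTG. Median UMIs per stromal cell ran from 1204 in PBS 2 and 1221 in bleomycin 2 to 30282 in SaraTG bleomycin. The part of these in the member values was not tested.

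Summed over all cells of WT skin, 0 of the 9 genes passed (0% of 15334 genes called, with 2802 at an unadjusted p under 0.05), whereas DESeq2 called Tnc and Sparc among 1321 genes and the replicate block called 584 genes but 0 of the 9. Such sums cannot tell fewer cells of a type from less RNA per cell. Sparc stood at 1951, 2015 and 1648 CPM with PBS and 1259, 859 and 845 CPM with bleomycin in WT, and at 11934 and 1219 CPM in SaraTG. It was lower in every bleomycin library, as were 17.4% of all genes (log2 fold change -0.77, SE 0.20, adjusted p = 0.113 by edgeR; -0.97 to -0.66 over 13 alternatives, and -0.87 against PBS 2 alone). Tnc stood at 22.1, 51.3 and 73.6 CPM with PBS and 215, 63.1 and 137 CPM with bleomycin, and at 19.3 and 142 CPM in SaraTG, with 1 bleomycin library inside the PBS range (1.60, SE 0.58, adjusted p = 0.204). Without the library labelled PBS 3, Thbs3 was called as lower (-1.50, adjusted p = 0.0490, against -1.15, adjusted p = 0.216, with it), in a fit that called 6.22% of 15466 genes and not 0%.

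By the median over libraries, myeloid cells were the other main source of Fn1 and the main source of Thbs1 in skin, though not in every library. Of the 9 genes 8 were tested there and 0 passed, as against 0.0249% of 12026 genes (3 genes, with 1277 at an unadjusted p under 0.05). DESeq2 called none of the 8 and 260 genes in all, and the replicate block none of the 8 and 187 genes. Every tested member overlapped between the WT groups, while 16.4% of all genes did not. Thbs1 stood at 16.8, 87.9 and 1014 CPM with PBS and 416, 380 and 1627 CPM with bleomycin in WT, and at 91.2 and 765 CPM in SaraTG. The library labelled PBS 3 lay among the bleomycin libraries (log2 fold change 1.08, SE 1.28, adjusted p = 0.803; up to 4.11 over 14 alternatives, where the lowest adjusted p was 0.0809). With the replicate number as a block the log2 fold change was 2.46 (adjusted p = 0.138), and against PBS 2 alone it was 3.24. Summed neutrophil markers in the myeloid gate were 188 to 427 CPM with PBS, highest in PBS 3, and 359 to 562 CPM with bleomycin in WT, and 224 and 490.0 CPM in SaraTG. Summed myeloid markers were 8777 to 10897 CPM with PBS and 13650.1 to 14824 CPM with bleomycin in WT, without overlap, and the immediate early and heat shock genes 4846 to 13981 CPM with PBS, lowest in PBS 3, and 4840.5 to 7676 CPM with bleomycin. Their part in the Thbs1 values was not tested.

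Within myeloid cells the macrophages marked by C1q genes gave Thbs1 levels of 9.87, 70.1 and 183 CPM with PBS and 416, 321 and 1433 CPM with bleomycin in WT, and of 54.2 and 570 CPM in SaraTG. Every bleomycin library was above every PBS library, as for 9.88% of 7521 genes, a pattern described without a test, and beside the marker shifts above, because the class was singled out after its values were seen. In monocytes marked by Ly6c2, Thbs1 was 4182 CPM in PBS 3 and 167 CPM in PBS 1, against 557, 676 and 2333 CPM with bleomycin, and 627 and 1936 CPM in SaraTG. PBS 3 held 352 of these cells, PBS 1 held 36 and PBS 2 only 5. Thinned to 1000 UMIs, 1.23, 2.78 and 17.6% of myeloid cells had a Thbs1 UMI with PBS, 18.3, 12.8 and 35.2% with bleomycin, and 3.05 and 26.7% in SaraTG, against 0.633% of lymphoid cells.

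**Figure D3:**
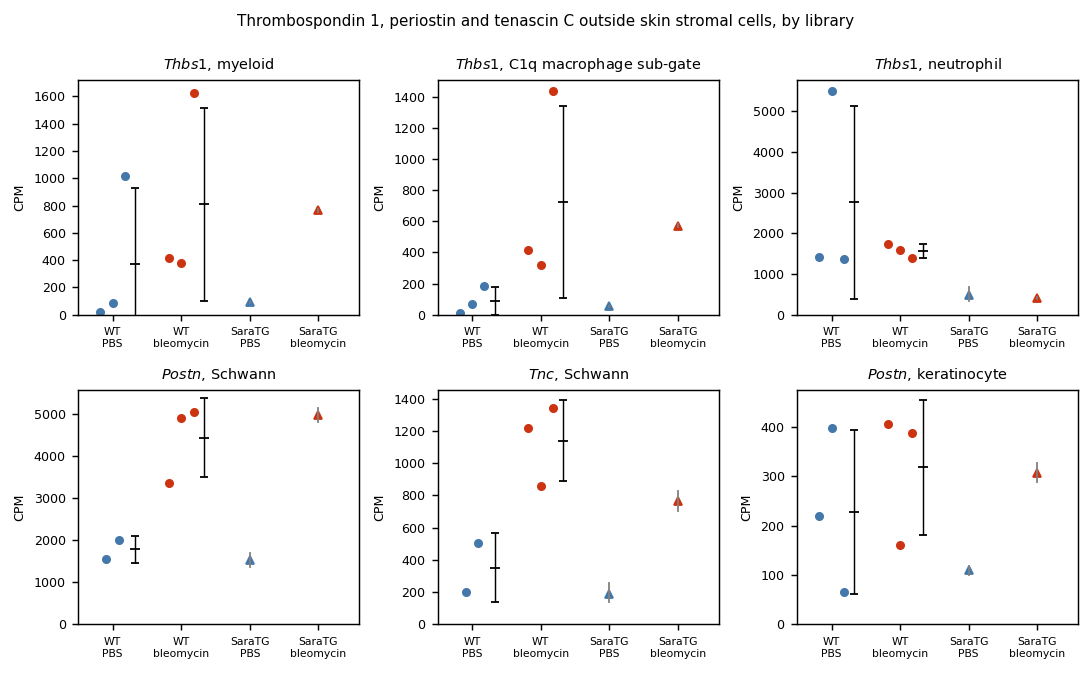
CPM by library of Thbs1 in myeloid cells, in C1q macrophages and in neutrophils, of Postn and Tnc in Schwann cells and of Postn in keratinocytes; circles are WT and triangles SaraTG libraries, blue PBS and red bleomycin, black bars the mean ± SD of groups of at least 2 libraries (clipped at 0) and grey lines the 95% Poisson interval of single libraries. Bleomycin points lie above PBS points for Thbs1 in C1q macrophages and for Postn and Tnc in Schwann cells, and overlap them in the other panels for WT.

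Fibronectin in skin myeloid cells was 260, 209 and 504 CPM with PBS and 239, 245 and 692 CPM with bleomycin in WT, and 776 and 700 CPM in SaraTG. Replicate 3 was the highest of both WT groups, which overlapped (log2 fold change 0.30, SE 0.51, adjusted p = 0.870). Tnc was near the detection limit in myeloid cells, at 0.505, 3.23 and 0.670 CPM with PBS and 25.7, 2.05 and 4.58 CPM with bleomycin, and at 0.226 and 5.93 CPM in SaraTG. Its log2 fold change of 3.68 (SE 1.16, adjusted p = 0.338) rested mostly on bleomycin 1. Vcan in myeloid cells was 183 CPM in PBS 3 and 6.46 to 68.6 CPM in the other 5 WT libraries, with 778 CPM in the Ly6c2 monocytes of PBS 3.

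Neutrophils had the highest Thbs1 level of any skin gate, 1738 ± 1599 CPM (SD, n = 8), above the myeloid level in 6 of 8 libraries. Single libraries gave 1412, 5503 and 1367 CPM with PBS and 1738, 1590 and 1398 CPM with bleomycin in WT, and 489 and 405 CPM in SaraTG. The WT groups overlapped, and the 5503 CPM came from 15 cells of PBS 2. Next came myeloid cells at 549.8 ± 558 CPM (n = 8), mural cells at 406 ± 212 CPM (n = 6), stromal cells at 234 ± 129 CPM (n = 8) and keratinocytes at 104 ± 71.5 CPM (n = 8), with myeloid above mural cells in only 2 of 6 libraries.

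Among the gates, Postn and Tnc were highest in the Schwann gate, set by markers of peripheral glia, where stromal markers were also high. Postn averaged 3345 ± 1649 CPM in Schwann cells (SD, n = 7) and 678.5 ± 195 CPM in stromal cells, and was higher in Schwann cells in 7 of 7 libraries. Tnc averaged 725 ± 456 and 317 ± 276 CPM, higher in 6 of 7 libraries. Sparc was higher in Schwann than in stromal cells in 5 of 7 libraries, the exceptions being WT PBS 3 and SaraTG PBS. Its means were 10114 ± 1182 CPM in Schwann and 10238 ± 10552 CPM in stromal cells, the second resting on 35181 CPM in SaraTG PBS. Thbs2 was higher in stromal cells in 6 of 7, Cthrc1 in 7 of 7 and Vcan in 6 of 7.

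Cells of the Schwann gate also separated by treatment for several of the genes, described here with no test because the gate was singled out after its values were seen. Postn stood at 1563 and 2009 CPM in WT PBS 1 and 3, 3375, 4918 and 5046 CPM in WT bleomycin, 1525 CPM in SaraTG PBS and 4982 CPM in SaraTG bleomycin. PBS 2 held 8 Schwann cells and was left out. Tnc followed with 200 and 505 CPM, 1217, 856 and 1341 CPM, and 191 and 764 CPM in the same order. All 4 bleomycin libraries were above all 3 PBS libraries for both genes, as were 10.5% of the 9139 genes with at least 10 CPM in either treatment, while Sparc was 10574 and 11776 CPM with PBS and 9740 to 10523 CPM with bleomycin in WT.

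Thbs2 in Schwann cells was 69.3 and 190 CPM with PBS, 517, 310 and 280 CPM with bleomycin, and 162 and 265 CPM in SaraTG. It too was higher in each bleomycin library than in each PBS library. After thinning, Postn was detected in 52.0 and 43.2% of WT PBS cells, 69.8, 86.7 and 93.7% of WT bleomycin cells, and 48.7 and 83.7% of SaraTG cells. Beside these values, the Schwann markers summed to 10325 to 21194 CPM with PBS and 3081 to 6461 CPM with bleomycin in WT (18550 and 4550 CPM in SaraTG), the stromal markers to 5784 to 8989 and 7706 to 11581 CPM (4351 and 9172 CPM in SaraTG), the keratinocyte markers over both genotypes to 50.5 to 99.5 and 25.9 to 35.4 CPM and the melanocyte markers to 26.7 to 99.5 and 3.93 to 8.23 CPM, and the median cell held 3947 and 7736.5 UMIs with PBS but 12066 to 14446 with bleomycin. Stromal markers summed higher than Schwann markers in every bleomycin library, and lower in every PBS library used. Myeloid markers summed to 2041 CPM in WT PBS 1, 1040 in SaraTG PBS and 584 in SaraTG bleomycin, against 32.6 to 123 elsewhere. Muscle markers summed to 1866 CPM in SaraTG bleomycin, against 8.18 to 103 elsewhere. Immediate early and heat shock genes summed to 8849 and 4968 CPM with PBS and 2763 to 5731 with bleomycin in WT. In SaraTG they gave 7062 and 3303 CPM. The part of these in the Postn and Tnc values was not tested, and the gate held 17 to 96 cells with bleomycin and 27 to 39 with PBS.

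A related group of cells stayed outside the gates because it carried both programs, with at least 3 stromal and at least 3 Schwann markers. There were 2, 0 and 7 such cells in the WT PBS libraries, 37, 12 and 73 in WT bleomycin, 3 in SaraTG PBS and 39 in SaraTG bleomycin, or 1.72, 0.554 and 1.12% of kept cells in WT bleomycin. They held 3378, 4403 and 5027 CPM of Postn, 1305, 2139 and 2363 CPM of Tnc and 6619, 8974 and 8400 CPM of Sparc in the WT bleomycin libraries, and up to 42.8% of all Postn and 54.0% of all Tnc UMIs of a library. The median cell held 20920 to 35666.5 UMIs, against 1221 to 14135.5 in the stromal and 12066 to 14446 in the Schwann gate of the same 3 libraries. In SaraTG bleomycin it held 31148 UMIs, against 30282 in the stromal and 13565 in the Schwann gate. With PBS the median lay above both gates in WT PBS 1 (15592.5) and below both in WT PBS 3 (3907) and SaraTG PBS (3572). Doublets were not removed and cannot be told apart from single cells here.

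Keratinocytes carried Postn at 220, 398 and 65.7 CPM with PBS and 407, 160 and 387 CPM with bleomycin in WT, and at 109 and 308 CPM in SaraTG. These groups overlapped. In endothelial cells 3 members were tested (Fn1, Thbs1 and Sparc) and 0 passed, as against 0.885% of 2825 genes (25 called, 0.602% lower, with 378 at an unadjusted p under 0.05, and 67 genes but 0 members by DESeq2). Sparc stood at 1631, 2011 and 1331 CPM with PBS and 3077, 709 and 3481 CPM with bleomycin (log2 fold change 0.56, SE 0.47, adjusted p = 0.671). In T, NK and innate lymphoid cells 0 of 3 tested members passed among 8521 genes. None of those was called by edgeR, 478 were at an unadjusted p under 0.05, and 17 were called by DESeq2.

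Of 30 other matricellular and adhesive glycoproteins, 27 were tested in skin stromal cells and 3 passed, against 3.23% of all genes tested, but the stromal calls given here rest on the full set of barcodes and libraries. With shared barcodes left out 0 genes were called in skin stromal cells, with PBS 2 as the single control 2, and without bleomycin 1 only 1. Spp1 (osteopontin) rose with bleomycin (log2 fold change 3.42, SE 0.46, adjusted p = 0.0245), while Ccn1 (-1.81, SE 0.24, adjusted p = 0.0245) and Tnxb (tenascin X; -1.95, SE 0.41, adjusted p = 0.0470) fell, with a list median of -0.28 beside -0.02 over all genes. Of 19 receptors 17 were tested: the integrin gene Itgb8 rose (2.34, SE 0.45, adjusted p = 0.0393) and Itga9, whose product binds tenascin C, fell (-1.21, SE 0.25, adjusted p = 0.0436), with a median of 0.15. Of 14 versican partners and proteases 11 were tested, and the versican-cleaving Adamts1 (-1.40, SE 0.22, adjusted p = 0.0284) and Adamts5 (-1.19, SE 0.23, adjusted p = 0.0395) fell, with a median of -1.19. None of the 12 immediate early and heat shock genes passed (median -0.81). In endothelial cells Cd36 (-2.08, SE 0.41) and Adamts1 (-1.83, SE 0.35) fell, both at an adjusted p of 0.0494 where 0.885% of all genes were called, and no listed gene passed in any other comparison.

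In the kidney, where stromal cells were nearly absent, myeloid or endothelial cells held most UMIs of 5 of the 9 genes by the median over libraries. Myeloid cells held a median of 81.6% of the Fn1 and 66.9% of the Vcan UMIs of a library, and 27.7% of those of Thbs1, and endothelial cells 53.5% of Sparc, 56.0% of Thbs2 and 76.9% of Cthrc1. The endothelial share ran from 0.198 to 87.1% over libraries for Sparc and from 0 to 100% for Thbs2 and Cthrc1. Over all kidney cells Thbs2 and Cthrc1 averaged only 0.599 and 0.203 CPM. The 42 stromal cells of SaraTG vehicle 2, the only library with at least 10 of them, carried Sparc at 1266 CPM, Fn1 at 414, Thbs1 at 125, Thbs2 at 118, Vcan at 53.5, Thbs3 at 49.9, Postn at 39.2 and Tnc at 3.57 CPM, and no Cthrc1 UMI.

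**Figure D4:**
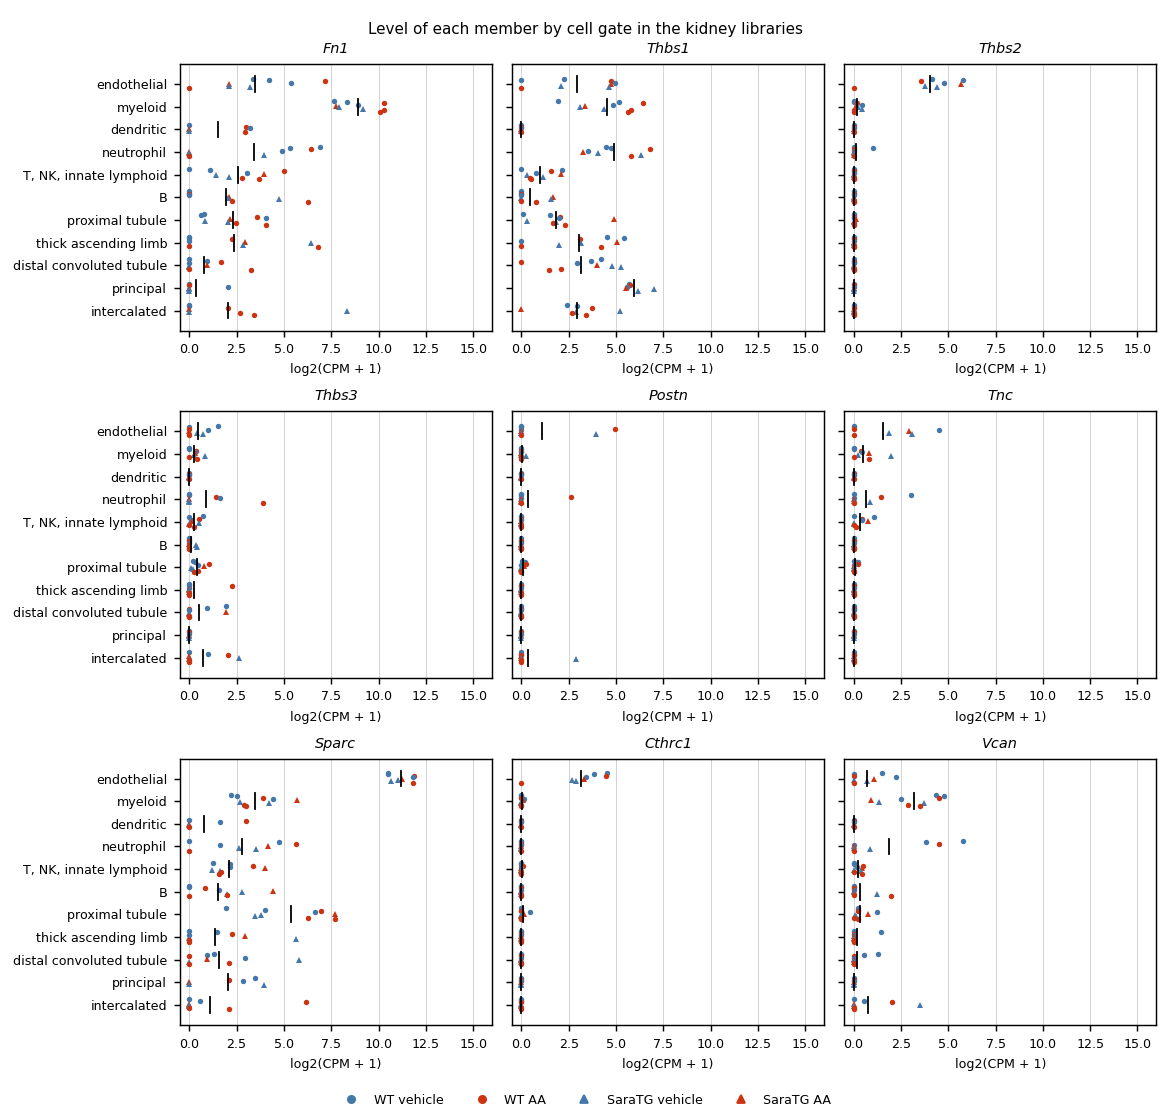
Level of each gene by cell gate in the 9 kidney libraries, as log2(CPM + 1), with 1 point per library with at least 10 cells of the gate (circles WT, triangles SaraTG; blue vehicle, red AA) and a black bar at the mean of the points. Fn1 is highest in myeloid and Sparc in endothelial cells, and the bars of Thbs3, Postn and Tnc lie close to 0 in most gates; the stromal gate, with 1 library, is not drawn.

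Endothelial and myeloid levels differed for 5 of the 9 genes by the exact sign-flip test over 8 libraries, against 74.1% of 7456 genes (53.2% higher and 20.9% lower in endothelial cells). Sparc was higher in endothelial cells in 8 of 8 libraries, at 2495 ± 1011 against 15.3 ± 15.6 CPM (mean log2 difference 6.70 ± 0.78, exact p = 0.00781), and Thbs2 (1.52 ± 0.86) and Cthrc1 (0.97 ± 0.56) in 7 of 8 (exact p = 0.0156 each). Fn1 was lower in endothelial cells in 8 of 8, at 28.3 ± 48.4 against 569 ± 448 CPM (-4.20 ± 1.30, exact p = 0.00781), and Vcan in 7 of 8 (-0.86 ± 0.74, exact p = 0.0156). Thbs1, Thbs3, Postn and Tnc did not pass (exact p from 0.125 to 0.5). Of the gates held by at least 3 libraries, Thbs1 was highest in principal cells of the collecting duct, at 65.6 ± 32.4 CPM (n = 6), above neutrophils at 40.7 ± 37.1 CPM in 4 of 6 libraries, which is within the spread.

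AA was compared with vehicle in WT kidney over the 9 libraries in 1 fit. In myeloid cells 5 of the 9 genes were tested and 0 passed (0% of 13053 genes called, with 1053 at an unadjusted p under 0.05), while DESeq2 called Fn1 among 41 genes. Fn1 stood at 199, 318 and 478 CPM without AA, 1256, 1267 and 1077 CPM with AA, 239 and 584 CPM in SaraTG vehicle and 213 CPM in SaraTG AA. The 3 WT AA libraries lay close together and well above the highest WT vehicle library, and the SaraTG AA library lay with the vehicle libraries.

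The fitted log2 fold change of myeloid Fn1 in WT was 1.88 (SE 0.42, unadjusted p = 0.00199, adjusted p = 0.600), and it stayed between 1.57 and 2.35 over 13 alternatives (the lowest adjusted p being 0.00463 and the highest 1). It was called by DESeq2 (1.86, adjusted p = 0.00463) and without vehicle 3 (2.35, adjusted p = 0.0412), fits that called 0.314% and 3.01% of all genes. The WT groups did not overlap for Fn1 and Thbs1, 2 of the 5 tested members, beside 5.94% of all genes that were higher without overlap. Without the libraries labelled WT AA 1 and SaraTG AA, whose Zfyve9 levels go against their labels, the log2 fold change was 1.85 (adjusted p = 0.710). That fit leaves out the 213 CPM of Fn1 in SaraTG AA, which had 20.6 CPM of Zfyve9, the level of a WT library. Counted as WT, SaraTG AA would lie inside the WT vehicle range, so the lack of overlap depends on the labels.

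**Figure D5:**
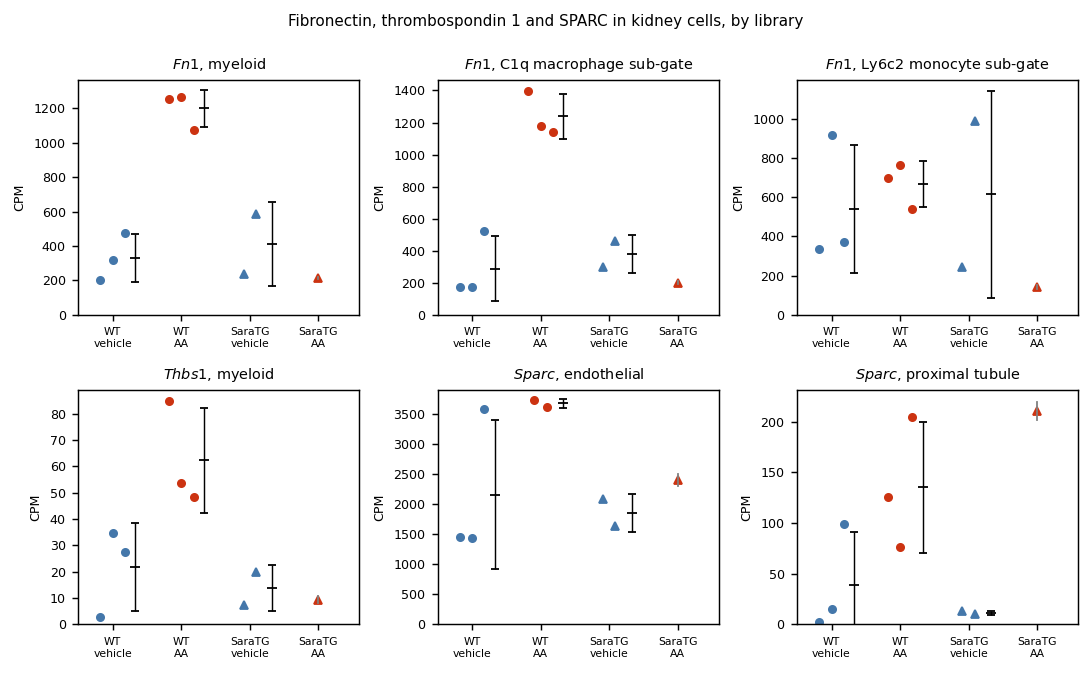
CPM by library of Fn1 in kidney myeloid cells, C1q macrophages and Ly6c2 monocytes, of Thbs1 in myeloid cells and of Sparc in endothelial and proximal tubule cells; circles are WT and triangles SaraTG libraries, blue vehicle and red AA, black bars the mean ± SD of groups of at least 2 libraries (clipped at 0) and grey lines the 95% Poisson interval of single libraries. The WT AA points for Fn1 lie above 1000 CPM in myeloid cells and in C1q macrophages, where every other library lies below 600 CPM.

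By class, Fn1 in C1q macrophages was 171, 170 and 521 CPM without AA and 1398, 1179 and 1140 CPM with AA in WT, and 297, 461 and 200 CPM in SaraTG vehicle 1 and 2 and SaraTG AA. Every WT AA library was above every WT vehicle library there, as for 8.44% of 8139 genes. In Ly6c2 monocytes it was 337, 918 and 369 CPM without AA and 698, 765 and 538 CPM with AA in WT, and the groups overlapped. Thinned to 1000 UMIs, 5.52, 6.79 and 17.7% of WT vehicle, 25.6, 24.6 and 26.9% of WT AA, 4.06 and 12.5% of SaraTG vehicle and 5.49% of SaraTG AA myeloid cells had an Fn1 UMI, against 0.380% of lymphoid cells on average. Beside this, summed proximal tubule markers in the myeloid gate were 114 to 942 CPM without AA and 39.0 to 268 CPM with AA in WT, and summed stromal markers 29.0 to 52.8 and 17.2 to 36.8 CPM. The myeloid markers of the gate summed to 17275, 23049.6 and 37953 CPM in WT vehicle 1 to 3, to 34665 to 39246 CPM in WT AA, to 17841 and 19047 CPM in SaraTG vehicle and to 30593 CPM in SaraTG AA. In WT, vehicle 1 and 2 were below all 3 AA libraries and vehicle 3 lay within their range. The part of these in the Fn1 values was not tested. The effect of AA on myeloid Fn1 in SaraTG minus that in WT was -2.82 (SE 0.80, unadjusted p = 0.00718, adjusted p = 1, with 0 of 13053 genes called and 432 at an unadjusted p under 0.05), and it rests on the library labelled SaraTG AA.

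Thbs1 in kidney myeloid cells stood at 2.85, 34.8 and 27.6 CPM without AA, 84.8, 53.5 and 48.3 CPM with AA, 7.51 and 19.9 CPM in SaraTG vehicle and 9.26 CPM in SaraTG AA. All WT AA libraries were above all WT vehicle libraries, as were 5.94% of all genes (log2 fold change 1.51, SE 0.69, adjusted p = 0.600). Counted as WT by its Zfyve9 level, SaraTG AA would lie inside the WT vehicle range, so for Thbs1 too the lack of overlap depends on the labels.

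Endothelial cells carried Sparc at 1450, 1438 and 3589 CPM without AA, 3739 and 3628 CPM with AA, 2085 and 1634 CPM in SaraTG vehicle and 2398 CPM in SaraTG AA. WT AA 3 held 1 endothelial cell and was not used. Both WT AA libraries were above all 3 WT vehicle libraries, as were 9.53% of all genes, but close to vehicle 3 (log2 fold change 0.70, SE 0.45, adjusted p = 0.935). In this gate 0 of 7 tested members and 0% of 10469 genes were called, 485 genes were at an unadjusted p under 0.05, and DESeq2 called 13 genes but 0 members. Thbs2 was 16.8, 53.4 and 26.6 CPM without AA, 10.8 and 0 CPM with AA, 12.5 and 20.2 CPM in SaraTG vehicle and 49.6 CPM in SaraTG AA. The WT groups did not overlap (-1.72, SE 0.74, adjusted p = 0.935, while 12.4% of all genes were lower without overlap), but WT AA 2 held 21 endothelial cells and its count of 0 allows up to 50.1 CPM by the exact 95% Poisson interval, which covers counting error only. Fn1 in endothelial cells had a log2 fold change of 2.00 (SE 0.82, adjusted p = 0.935) and changed sign in 3 of 12 alternatives.

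Proximal tubule cells, the main target of AA in the kidney, carried Sparc at 2.85, 15.2 and 99.1 CPM without AA, 125, 76.2 and 205 CPM with AA, 12.9 and 10.2 CPM in SaraTG vehicle and 210.3 CPM in SaraTG AA. Vehicle 3 lay within the AA range and the other vehicle libraries below it (log2 fold change 1.57, SE 1.0, adjusted p = 0.491, with 0% of 13985 genes called, 1497 at an unadjusted p under 0.05, DESeq2 32 genes and 0 members). Without vehicle 3 Sparc was called, at 3.64 (adjusted p = 0.0307), beside 6.27% of all genes, as was Fn1, at 3.63 (adjusted p = 0.0338), which with all libraries was 0.67 (SE 1.20, adjusted p = 0.797) and went as low as 0.05 over 13 alternatives. The part of RNA from other cells in these values was not tested. Summed endothelial markers in the gate were 3.78 to 8.52 CPM without AA and 3.11 to 6.95 CPM with AA in WT, and summed stromal markers 0.531 to 2.97 and 2.80 to 6.22 CPM, and summed myeloid markers 23.9 to 332 and 126 to 409.7 CPM.

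Over all kidney cells Fn1 was 9.13, 18.1 and 199 CPM without AA, 535, 125 and 333 CPM with AA, 44.6 and 106 CPM in SaraTG vehicle and 89.4 CPM in SaraTG AA. Vehicle 3, which had many more immune cells than the other vehicle libraries, lay inside the AA range (log2 fold change 2.04, SE 1.16, adjusted p = 0.380, with 0 of 9 members and 0% of 17926 genes called, 2637 at an unadjusted p under 0.05, DESeq2 201 genes and 0 members). Without it Fn1 was called, at 4.53 (adjusted p = 0.00960), and Sparc, at 1.65 (adjusted p = 0.0425, against 0.09 with it), in a fit that called 36.6% of 17755 genes. In lymphoid cells 0 of 3 tested members passed, with Fn1 at 2.11 (SE 0.86, adjusted p = 0.589, with 0% of 13541 genes called, 1138 at an unadjusted p under 0.05, DESeq2 48 genes).

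SaraTG and WT kidneys without AA were compared in the same fits, and 0 members passed in any of the 5 gates fitted. The share of genes called was 0.0191% in endothelial cells (2 of 10469) and 0% in all cells, myeloid, proximal tubule and lymphoid cells, with 366, 785, 585, 743 and 1188 genes at an unadjusted p under 0.05, and DESeq2 called 4, 153, 10, 20 and 30 genes but 0 members. Over all cells Sparc was 158 and 103 CPM in SaraTG against 11.5, 23.2 and 117 CPM in WT, with WT vehicle 3 inside the SaraTG range (1.31, SE 0.90, adjusted p = 0.966). Without vehicle 3 it was called, at 2.85 (adjusted p = 0.0410), beside 4.81% of 17755 genes. Endothelial Fn1 had a log2 fold change of -2.15 (SE 0.94, adjusted p = 0.999). In skin, with 1 SaraTG library per treatment, the genotypes were not tested against each other within a treatment.

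The genes most like each member across 23 gates of both tissues, by Pearson's r of the mean log2(CPM + 1) over 12451 genes, are given as a description, since gates share libraries and depth. Postn and Tnc were each other's closest or next to closest gene (r = 0.97), with Col16a1 at 0.97 for both, and Mmp2, a marker of the stromal gate, at 0.93 for Postn and Col5a1 at 0.96 for Tnc. Cthrc1 was closest to Ccn3 (0.99), Mfap2 (0.97) and Gpx7 (0.95), Thbs2 to Mfap2 (0.95), Kdelr3 (0.94) and Tnc (0.94), and Thbs3 to Gpr153 (0.98), Adamts2 (0.95) and Lama2 (0.94). Sparc was closest to Bgn (0.94), Casp12 (0.93) and Nid1 (0.92), Vcan to Olfml3, Cd276 and Gpnmb (0.89 each), and Fn1 to Colec12 (0.89), C1qtnf1 (0.83) and the receptor gene Lrp1 (0.83). Thbs1 stood apart: its closest genes were Cebpb (0.80), A530013C23Rik (0.79) and Slc49a4 (0.78), and its r with the other 8 members was 0.27 to 0.54.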

How the data were processed

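RNA of sorted single cells was measured in 8 skin and 9 kidney libraries with the 10x Genomics 3′ v3 kit. The authors deposited UMI counts per gene and barcode, without normalization, from Cell Ranger (4.0.0 in 4, 3.1.0 in 4 and 3.0.2 in 9 libraries, per the file headers; the submitters' processing notes name Cell Ranger 3.0.2, Seurat 2.3.4 and mm10). Gene lists of 32286 and 31053 entries were joined by Ensembl identifier (30406 shared, 597 with another symbol). The bleomycin schedule is that of the labels; the study's methods give daily injections and harvest 1 week after the last.

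Cells with fewer than 200 genes or more than 20% mitochondrial UMIs were left out, and doublets were not removed. A cell joined the gate with the most markers detected, given at least 3 and 2 more than any other gate; classes inside the stromal and myeloid gates needed 2. Counts were summed per library and gate (at least 10 cells), given as CPM of the gate's UMIs, and tested with edgeR 4.0.16 in R 4.3.3 (filterByExpr, TMM, quasi-likelihood, two-sided, Benjamini-Hochberg over all genes tested). The skin fits used the 6 WT libraries and the kidney fits all 9 in 4 groups; the contrasts between genotypes' treatment effects used all libraries of a tissue. Gates within a library were compared by exact sign-flip tests, given without adjustment over the 9 genes. Alternatives were DESeq2 1.42.0, no filter, a replicate block, the gene list as covariate, left-out libraries, stricter filters (500 genes and 10% mitochondrial UMIs) and gates, left-out shared barcodes, and PBS 2 as the only PBS library. Tables and figures were made with Python 3.11.15, pandas 2.3.3, scipy 1.17.1 and matplotlib 3.10.9.

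The 9 genes, the lists and the tests were chosen with earlier results of these data known. The 9 genes and Zfyve9 were always named; listed genes were named where they passed, and the 3 genes most like each member among those with at least 20 CPM in 1 gate. Positions are from GENCODE vM21. Same-numbered WT skin libraries deviated together in stromal (r = 0.194, 0.203 and 0.357), myeloid (0.352, 0.239 and 0.598) and all cells (0.257, 0.129 and 0.527). They also share a gene list, but numbers 1 and 2 have the same list of 32286 entries and only number 3 has the other. The part of processing in these correlations was not tested. Numbers did not pair the other gates or the kidney libraries. On simulated counts, 87.0% of 200 genes changed by a log2 fold of 2 were recovered in skin stromal cells (7.45% false calls, 11262 genes), 81.0% in skin myeloid (7.95%, 12026 genes) and 72.5% in kidney myeloid cells (5.84%, 13053 genes). Those counts were drawn independently per gene and library, without shared barcodes, pairing between libraries or a library set apart from its group. The recovered shares need not hold for the real libraries. Poisson intervals cover counting error only.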

Additional observations from a re-analysis of the deposited data

Results flagged for a closer look

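For 4 member and gate pairs, the WT groups did not overlap, over libraries with at least 10 cells of the gate. The SaraTG libraries moved the other way with treatment. The difference itself was fitted as an interaction with edgeR, which called 0 genes in any gate. Of all genes with at least 10 CPM in a group, the same held for 3.58% in skin stromal, 2.18% in kidney myeloid and 6.13% in kidney endothelial cells, against 2 of 9, 1 of 4 and 1 of 6 members.

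In skin stromal cells the mean Thbs3 level was lower by 28.7 CPM with bleomycin in WT (a difference of -28.7, from 63.4 to 34.6 CPM) and higher by 9.96 CPM in SaraTG (50.7 to 60.7 CPM), with an interaction of 0.67 on the log2 scale (SE 0.58, adjusted p = 0.870). Postn differed by -272 CPM in WT (852 to 580 CPM) and by 106 CPM in SaraTG (513 to 619 CPM), with an interaction of 0.40 (SE 0.63, adjusted p = 0.946). The WT PBS means of both include PBS 1 and PBS 3, which carry the signal of the transgene (838 CPM of the human ZFYVE9 entry and 620 CPM of Zfyve9).

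In kidney myeloid cells the mean Fn1 level was higher by 868 CPM with AA in WT (332 to 1200 CPM) and lower in SaraTG by a difference of -198 CPM (411 to 213 CPM), with an interaction of -2.82 (SE 0.80, adjusted p = 1). The library labelled SaraTG AA has the Zfyve9 level of a WT library, and WT AA 1 that of a SaraTG library. In kidney endothelial cells Thbs2 differed by -26.9 CPM in WT (32.3 to 5.38 CPM) and by 33.2 CPM in SaraTG (16.4 to 49.6 CPM), with an interaction of 3.30 (SE 0.98, adjusted p = 1). The WT AA mean of Thbs2 averages 10.8 CPM in AA 1 and 0 in AA 2, whose 21 cells allow up to 50.1 CPM by the exact interval for counting error. Each comparison rests on 1 or 2 SaraTG libraries per treatment.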

How the results depend on the processing

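The 15 edgeR comparisons each called 0 members, and 172 of 185 alternative fits did too. With no member called as designed, these fits held no call whose sign could change. A further 3 comparisons planned for mural or kidney stromal cells could not be fitted for lack of cells. The causes of the changes below were not tested. With DESeq2, 2 members were called in all skin cells (Tnc and Sparc, beside 8.61% of all genes) and 1 in kidney myeloid cells with AA (Fn1, beside 0.314%). Without a filter on low counts, 1 was called in skin stromal (Cthrc1, beside 5.36% of genes), 1 in skin endothelial (Vcan, 1.45%) and 2 in skin lymphoid cells (Postn and Tnc, 1.14%), and 2 (Fn1 and Postn) in kidney endothelial cells, both with AA (1.12%) and between genotypes (1.14%). Leaving out single libraries gave 0 to 1 called in all skin cells (Thbs3, without PBS 3, beside 6.22%) and, always without vehicle 3, 0 to 2 in all kidney cells (36.6% of genes) and proximal tubule cells (6.27%) with AA (Fn1 and Sparc), 0 to 1 in kidney myeloid cells with AA (Fn1, 3.01%) and 0 to 1 in all kidney cells between genotypes (Sparc, 4.81%). The stromal against mural test called 0 members instead of 7 under the strict cell filter (4 libraries), the strict gate (3) and without shared barcodes (4), since so few libraries cannot reach 0.05.

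The replicate block called 1 member, Sparc, in kidney endothelial cells with AA (beside 1.15% of genes), where the numbers do not pair the libraries, and 0 in all other comparisons. Where they pair, the block called 1110 instead of 364 genes in skin stromal, 187 instead of 3 in myeloid and 584 instead of 0 in all skin cells, with 0 members. In skin stromal cells, single left-out libraries gave 1 to 203 genes called, and left-out shared barcodes 0 genes. Of the members called only under an alternative, kidney endothelial Fn1 with AA kept its sign in 9 of 12 alternatives and Sparc in all kidney cells with AA in 7 of 12. Kidney endothelial Postn kept its sign in 9 of 11 with AA and in 9 of 10 between genotypes, the lowest log2 fold change being 0 in both. Mural, kidney stromal and sub-class values are limited by cell numbers.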
